A study of Mus musculus with 3 samples.

Results

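This report follows 10 genes of the MHC class I pathway, of 31053 genes measured, across the cells of mouse ear epidermis: the light chain gene B2m, the classical heavy chain genes H2-K1 and H2-D1, the non-classical heavy chain genes H2-T23, H2-M2 and H2-M5, the peptide loading genes Tap1, Tap2 and Tapbp, and Cd200. They were chosen for their known roles, with Cd200 added as a gene tied to the immune privilege of the hair follicle. The samples were 3 single-cell RNA libraries of untreated ear epidermis from C57BL/6N mice aged 9 weeks, so comparisons were made between cell groups within the libraries. Epidermal sheets were lifted after dispase, and the cells were freed with trypsin and stored frozen. Nothing states that the replicates came from separate animals, so p-values measure only the spread between these libraries.

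MHC class I molecules hold peptides from inside the cell at its surface, where CD8 T cells read them. Each molecule pairs a heavy chain with beta-2-microglobulin, and peptides cut by the proteasome reach it through the TAP transporter with the help of tapasin. The growing hair follicle is known in mouse and human skin as a site of immune privilege, with little class I on its lower epithelium and with local inhibitory signals. Natural killer cells attack cells that lack class I, and the non-classical molecule Qa-1, encoded by H2-T23, restrains them through the receptor NKG2A.

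The cells fell into 5 groups by a rule that used none of the 10 genes. Langerhans cells, dendritic cells resident in the epidermis, had at least 10 UMIs (unique molecular identifiers, each a captured transcript) of Cd74 and H2-Aa. Follicle cells had at least 2 of the 5 markers Sox9, Fst, Lgr5, Cd34 and Wif1 detected. Granular cells, the outermost living keratinocytes, had at least 1% of their UMIs from Lor. Spinous cells had at least 0.5% from Krt1 and Krt10, and basal cells had at least 0.5% from Krt5 and Krt14 with Krt1 and Krt10 below 0.5%. Each cell entered 1 group, in the order just given.

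The libraries held 15926683, 24480473 and 28176712 UMIs in replicates 1, 2 and 3, and 5340 of 6078 cell barcodes passed the filters. They gave 0, 26 and 21 Langerhans cells, 32, 44 and 46 follicle cells, 423 granular, 2294 spinous and 2311 basal cells in all, while 143 cells met no limit. The follicle cells were shallow, with median totals of 3573.5 to 6833.5 UMIs per library, against 7367 to 12198 in basal cells. Of the 11 follicle markers examined, 10 were found in the follicle cells and Krt75 was at 0, and their summed level was 3663 to 6533 CPM (counts per-million, here a gene's UMIs over all UMIs of its library and cell group), against 273 to 463 in basal cells. None of 8 T-cell, 4 endothelial or 4 Merkel-cell markers was detected in the follicle group, and 75 of its 122 cells also met the basal limits. The Langerhans cells had all 9 of their markers, with keratinocyte transcripts beside them: the 6 spinous markers summed to 465 and 11024 CPM in the 2 libraries.

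The promoters of the members differ in the short elements through which class I genes are known to be switched on. Shown first are the windows upstream of B2m and H2-K1, which carry such elements, then those of H2-M2, H2-M5 and Cd200, whose transcripts were by far the highest in 1 of the 5 cell groups. The sequences come from the RefSeq promoter table on build GRCm38.p6. They are written 5′ to 3′ on the gene's strand and end at the base before the start site, and capitals mark matches to the elements named in the next paragraph.
B2m: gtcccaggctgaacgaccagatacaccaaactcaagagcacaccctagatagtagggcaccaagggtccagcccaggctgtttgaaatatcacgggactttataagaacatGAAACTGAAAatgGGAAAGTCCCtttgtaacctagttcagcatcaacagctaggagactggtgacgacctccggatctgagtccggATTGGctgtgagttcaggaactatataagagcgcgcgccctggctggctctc
H2-K1: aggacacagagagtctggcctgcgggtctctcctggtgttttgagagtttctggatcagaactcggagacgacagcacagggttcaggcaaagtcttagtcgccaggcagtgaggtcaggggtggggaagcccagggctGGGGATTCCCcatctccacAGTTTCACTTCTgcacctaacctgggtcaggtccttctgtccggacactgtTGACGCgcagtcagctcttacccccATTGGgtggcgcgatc
H2-M2: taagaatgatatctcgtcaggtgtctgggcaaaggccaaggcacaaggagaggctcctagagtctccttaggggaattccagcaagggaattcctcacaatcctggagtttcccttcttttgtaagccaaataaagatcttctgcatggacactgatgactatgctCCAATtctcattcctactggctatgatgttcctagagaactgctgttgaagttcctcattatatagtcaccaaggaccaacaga
H2-M5: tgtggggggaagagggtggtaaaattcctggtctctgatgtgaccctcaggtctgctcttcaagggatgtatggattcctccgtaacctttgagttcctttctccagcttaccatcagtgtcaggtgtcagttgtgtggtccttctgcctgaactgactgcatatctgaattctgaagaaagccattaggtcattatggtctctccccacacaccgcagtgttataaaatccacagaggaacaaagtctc
Cd200: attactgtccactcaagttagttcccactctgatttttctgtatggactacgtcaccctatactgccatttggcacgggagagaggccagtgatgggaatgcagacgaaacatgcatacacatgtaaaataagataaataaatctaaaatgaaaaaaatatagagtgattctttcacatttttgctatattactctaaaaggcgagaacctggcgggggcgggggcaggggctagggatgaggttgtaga
B2m lies at chr2:122147686-122153083 on the plus strand, and its window is chr2:122147437-122147685. The H2-K1 window is chr17:34000348-34000597, next to the gene at chr17:33996017-34000347 on the minus strand. The H2-M2 window is chr17:37483555-37483804, the H2-M5 window chr17:36989534-36989783 and the Cd200 window chr16:45409054-45409303, all 3 on the minus strand.

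Read 5′ to 3′, the capitals of H2-K1 are the class I NF-kB site, the class I interferon-response element, TGACGC (the X2 box) and ATTGG (the Y box), and those of B2m are a general interferon-response element, the B2m form of the NF-kB site and a Y box. Searched on both strands, the class I NF-kB site was found in 0.0852% of 32851 promoters of the same length. It lay 111 bases before the H2-K1 start. The class I interferon-response element was found in 0.0274% of all promoters and lay 92 bases before the H2-K1 start. The X2 box, read by the factors that recruit the class I transactivator NLRC5, lay 41 bases before that start and was found in 6.12% of promoters. The Y box is in 33.8% of promoters and lay 16 bases before it. The B2m window held its form of the NF-kB site, present in 0.140% of promoters, at 126 bases, the general interferon-response element, present in 2.98%, at 139 bases (both on the opposite strand), and a Y box at 53 bases. The H2-M2 window held a Y box at 84 bases and no other match, and the H2-M5 and Cd200 windows held none. The H2-D1 window, which is not shown because it overlaps annotated transcribed sequence, held the same 4 kinds of match as H2-K1, at 171, 152, 101 and, for 2 Y boxes, 76 and 53 bases. The windows of H2-T23, Tap1 and Tapbp overlap such sequence as well and are not shown. H2-T23 held a general interferon-response element at 124 bases and a Y box at 52, whereas Tap1 and Tapbp held Y boxes only. No match overlapped another in the windows shown. A match is a run of letters, not evidence of binding.

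The first question was whether follicle cells carry less of the class I pathway than the basal cells beside them. Over the whole group 4 of the 10 members were higher in follicle cells, Cd200, H2-T23, Tap1 and B2m, and 0 were called lower by edgeR, as at an unadjusted p under 0.05 and with DESeq2. Across all 11957 genes tested, 13.9% passed in this comparison, 7.82% higher and 6.09% lower. The tests are edgeR quasi-likelihood tests on counts summed per library and group with the library as a block, and log2 folds are given ± SE with p-values adjusted by Benjamini-Hochberg over all genes. All 10 members passed the low-count filter, but H2-M2 and H2-M5 did so only through Langerhans cells.

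**Figure D1:**
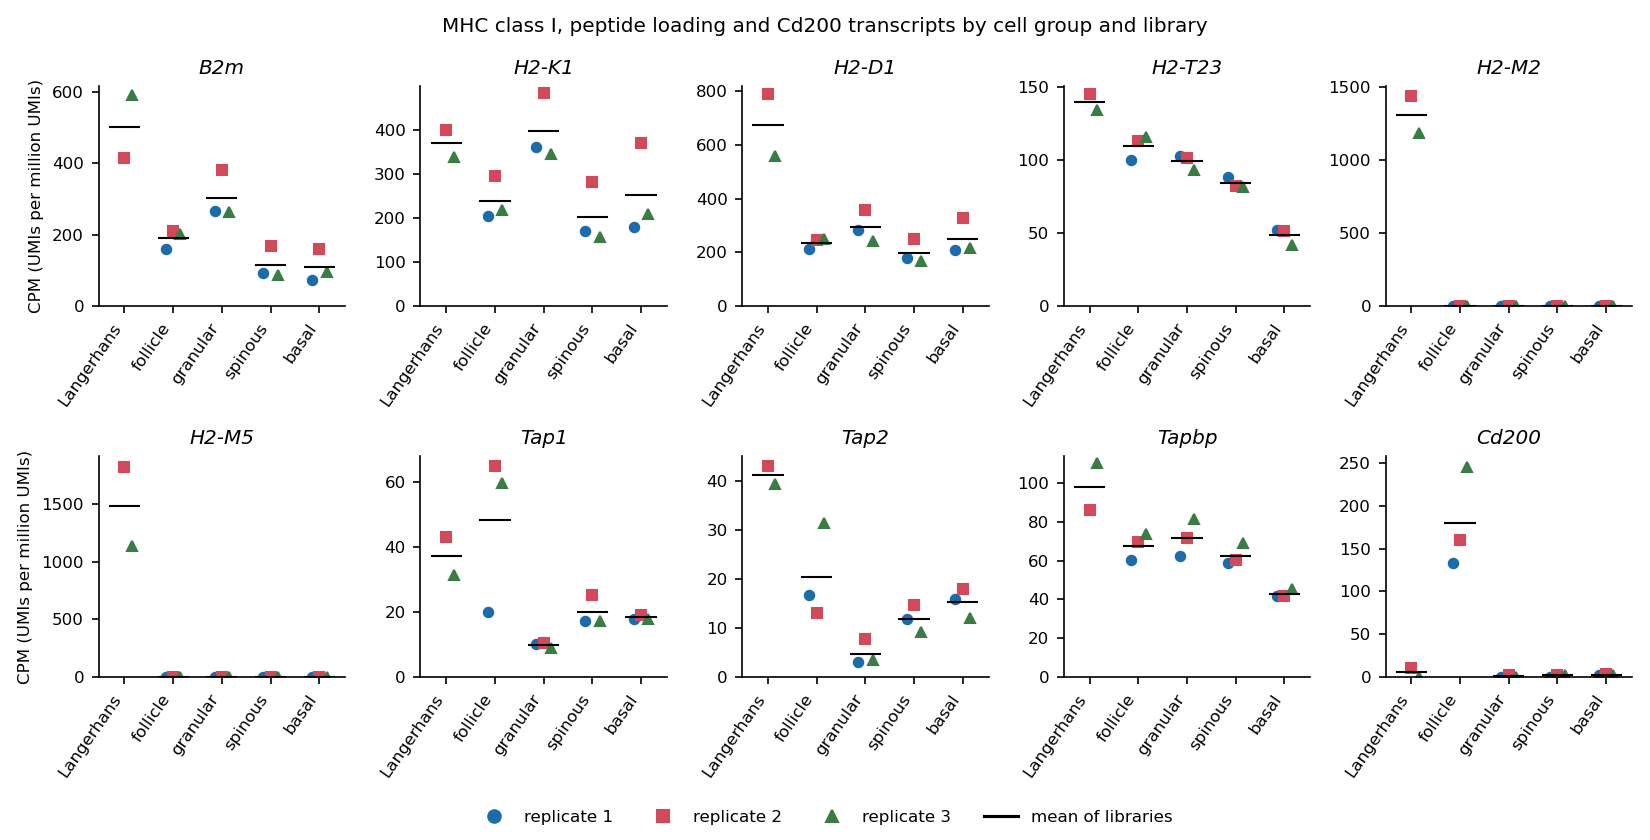
Levels of the 10 members in CPM (vertical axes, from 0) by cell group, with 1 point per library and a line at the mean of the libraries. Cd200 stands out in follicle cells, at 134 to 246 CPM, H2-M2 and H2-M5 in Langerhans cells, and B2m, H2-K1 and H2-D1 are higher in granular than in spinous cells in each library.

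B2m, the light chain shared by all class I molecules, had 161, 212 and 203 CPM in the follicle cells of replicates 1, 2 and 3, against 73.1, 160.1 and 96.5 in basal cells. Each library's follicle value lay above its basal value, and the lowest follicle value was close to the highest basal one. The log2 fold of follicle over basal cells was 0.65 ± 0.22 with an edgeR adjusted p of 0.0491. This call was lost without the library block (edgeR adjusted p = 0.290), without replicate 1 (0.248) and without replicate 3 (0.180). Overlapping groups (0.0749) and leaving out cycling cells (0.0729) lost the call as well. It also depended on which follicle cells were counted: over those with 3 or more markers the log2 fold was -0.25, with an adjusted p of 0.851.

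The classical heavy chains, which present peptides to CD8 T cells, did not pass against basal cells in the follicle group taken as 1 population. H2-K1 had 204, 295 and 218 CPM in follicle cells and 179, 369 and 208 in basal cells. H2-D1 had 214, 247 and 249 CPM in follicle cells and 209, 328 and 216 in basal cells. For both genes the groups overlapped, and replicate 2 was highest in basal cells. The log2 folds were -0.25 ± 0.16 for H2-K1 (edgeR adjusted p = 0.384) and -0.26 ± 0.15 for H2-D1 (edgeR adjusted p = 0.294), neither past the threshold. Both were called lower when the follicle group was narrowed. Over cells with 3 or more markers, which left out replicate 1 with its 7 such cells, H2-K1 was -1.55 (edgeR adjusted p = 0.00244) and H2-D1 -0.99 (0.0131), and without the cells with a Krt79 UMI they were -0.97 (edgeR adjusted p = 0.00288) and -0.71 (0.00291). These heavy chain genes are near-identical to each other and to the H2-Q and H2-T genes over parts of their sequence, so the split of reads among them is uncertain.

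H2-T23, the Qa-1 heavy chain, had 100.4, 113 and 116 CPM in follicle cells, against 52.0, 51.7 and 41.7 in basal cells. The groups did not overlap, and the log2 fold was 0.97 ± 0.19 (edgeR adjusted p = 0.00058). The direction held in each of the 18 alternative settings, and the call in 16 of them. H2-T23 overlaps the annotated gene A930015D03Rik, and the sources used here do not say if counting used the strand.

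H2-M2 and H2-M5, non-classical heavy chain genes of the H2-M region, gave 0 UMIs in the 122 follicle cells. In basal cells H2-M2 had 29 counts in all, 0.909, 2.02 and 1.18 CPM by replicate, and H2-M5 had 3 counts. With 814649 UMIs in follicle cells, an absence at those basal levels was not detectable at this depth. Counted by cell, 0 of 122 follicle cells had an H2-M2 UMI, which at 3 counts allows up to 2.46% of cells with a UMI at this depth and sets no limit on cells whose transcripts were not captured.

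Of the loading genes, Tap1 and Tap2 encode the paired subunits of the peptide transporter and Tapbp encodes tapasin, which holds the empty heavy chain at the transporter. Tap1 had 20.1, 65.0 and 59.6 CPM in follicle cells and 17.8, 19.2 and 17.9 in basal cells, a log2 fold of 1.16 ± 0.30 (edgeR adjusted p = 0.0101). Replicate 1 of the follicle cells was close to the basal values and the other libraries were well above them. The follicle values rest on 38 Tap1 counts, and the call was lost without replicate 2 (adjusted p = 0.112), replicate 3 (0.207) or the cells with a Krt79 UMI (0.518, log2 fold 0.49). Tap2 had 16.7, 13.0 and 31.6 CPM in follicle cells and 16.0, 18.0 and 12.0 in basal cells, with overlapping groups and an edgeR adjusted p of 0.766. Tapbp had 60.2, 69.4 and 73.7 CPM in follicle cells and 41.6, 41.9 and 45.5 in basal cells. Those groups did not overlap, yet the log2 fold of 0.45 ± 0.21 did not pass (edgeR adjusted p = 0.184). Scaled to total UMIs it did, at 0.65 with an edgeR adjusted p of 0.0316. Reads of Tap1 and Psmb9 can fall on each other because the genes overlap at their starts on opposite strands, and Tapbp overlaps Zbtb22 and Tap2 overlaps Gm20496 and Gm15821.

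Cd200 encodes a surface protein that restrains myeloid cells through its receptor. It had 134, 160.4 and 246 CPM in follicle cells, from 147 counts, and 2.00, 3.75 and 2.59 in basal cells. Among the basal cells, the 76 with 1 of the 5 follicle markers gave 44 counts, a pooled level of 79.1 CPM. The 2235 basal cells with 0 markers gave 15 counts, or 0.736 CPM. Follicle cells were far above every other group in each library. The log2 fold over basal cells was 5.85 ± 0.32 (edgeR adjusted p = 4.36e-12), and the ratio of pooled counts was 64.0 with a 95% interval of 47.0 to 88.1 that covers counting error only. The call held in all 18 alternative settings. Cd200 was not confined to this group: cells that met no group's limits, those with T-cell markers left out, had 147 CPM when pooled.

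Against spinous cells, in which 36% of all genes passed (15.7% higher and 20.2% lower in follicle cells), only Cd200 of the members passed, with a log2 fold of 5.94 ± 0.32 (edgeR adjusted p = 1.03e-12). B2m, at 94.6, 168 and 89.1 CPM in spinous cells, had a log2 fold of 0.17 ± 0.21 (edgeR adjusted p = 0.589). H2-K1 (-0.33 ± 0.16) and H2-D1 (-0.31 ± 0.15) did not pass either, with edgeR adjusted p-values of 0.129 and 0.110. The median log2 fold of all genes here was 0.57 higher when scaled to total UMIs, and under that scaling H2-K1, H2-D1, H2-T23 and Tapbp had the opposite sign.

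The follicle group was next divided. Its cells were split by a UMI of Cd34 or Lgr5, which mark stem cells of the bulge and the hair germ. This split was chosen after the values were seen, it uses markers of the follicle rule, and its p-values are no independent support. It gave 13, 28 and 22 cells with a UMI of either marker (63 in all) and 19, 16 and 24 without (59). In the marked cells both classical heavy chains were lower than in basal cells and H2-T23 and Cd200 were higher, which makes 4 of 10 members against 11.4% of the 11458 genes tested, 5.04% higher and 6.34% lower. In the other follicle cells B2m, Tap1, Tapbp and Cd200 were higher than in basal cells and 0 members were lower (also 0 unadjusted and with DESeq2), against a background of 9.11%, 5.14% higher and 3.97% lower.

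**Figure D2:**
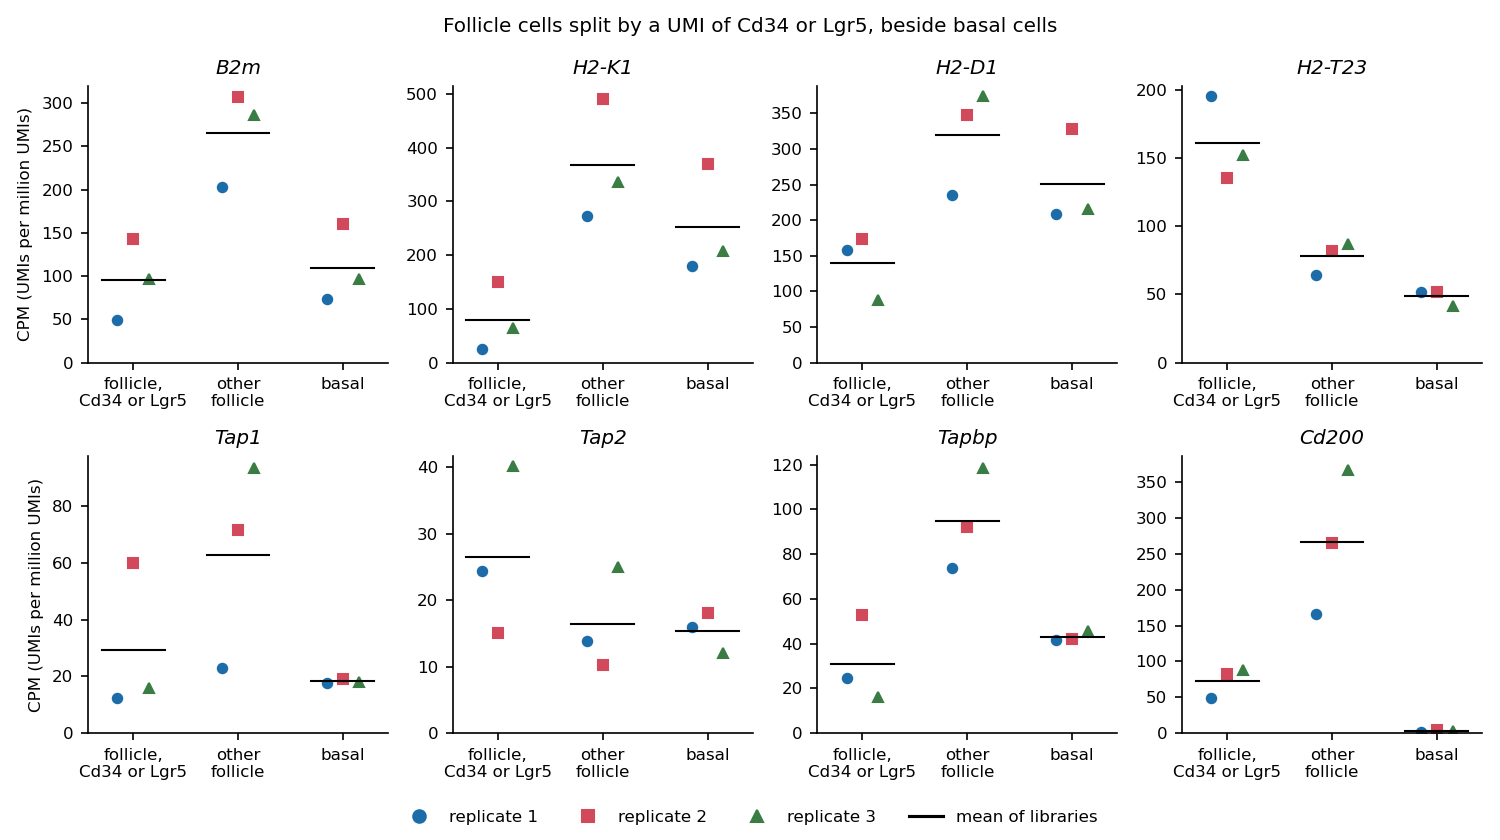
Levels of 8 members in CPM (vertical axes, from 0) in follicle cells with a UMI of Cd34 or Lgr5, in the other follicle cells and in basal cells, 1 point per library with a line at the mean. H2-K1 lies at 24.4 to 150.4 in the marked cells, below the other follicle cells and the basal cells in each library, while H2-T23 lies at 135 to 195, above both.

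H2-K1 had 24.4, 150.4 and 64.2 CPM in the marked cells (2, 20 and 8 counts), 272, 491 and 337 in the other follicle cells, and 179, 369 and 208 in basal cells. The marked cells were lowest in every library. Their log2 fold was -1.88 ± 0.28 against basal cells (edgeR adjusted p = 1.48e-05) and -2.21 ± 0.30 against the other follicle cells (edgeR adjusted p = 3.12e-05). H2-D1 had 159, 173 and 88.3 CPM in the marked cells, 235, 348 and 374 in the other follicle cells and 209, 328 and 216 in basal cells, with the marked cells again lowest in every library. Its log2 folds were -1.20 ± 0.23 against basal cells (edgeR adjusted p = 0.000535) and -1.34 ± 0.26 against the other follicle cells (edgeR adjusted p = 0.00311).

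B2m had 48.8, 143 and 96.3 CPM in the marked cells and 203, 307 and 287 in the other follicle cells, beside 73.1, 160.1 and 96.5 in basal cells. The marked cells did not pass against basal cells (log2 fold -0.45 ± 0.33, edgeR adjusted p = 0.462), and the difference from the other follicle cells was -1.55 ± 0.35 on the log2 scale (edgeR adjusted p = 0.0134). The other follicle cells stood above basal cells by 1.10 ± 0.23 on that scale (edgeR adjusted p = 0.00139). H2-T23 ran the other way: it had 195, 135 and 152 CPM in the marked cells, 64.5, 81.8 and 87.3 in the other follicle cells and 52.0, 51.7 and 41.7 in basal cells. The marked cells were highest in every library, with a log2 fold over basal cells of 1.38 ± 0.24 (edgeR adjusted p = 0.000158). The difference between the follicle subsets, 0.94 ± 0.31, did not pass (edgeR adjusted p = 0.151).

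Tapbp had 24.4, 52.7 and 16.0 CPM in the marked cells (11 counts) and 73.7, 92.1 and 118 in the other follicle cells. The other follicle cells exceeded basal cells by a log2 fold of 0.91 ± 0.26 (edgeR adjusted p = 0.0232), and the marked cells differed from them by -1.65 ± 0.46, just short of the threshold (edgeR adjusted p = 0.0523). Tap1 had 12.2, 60.2 and 16.0 CPM in the marked cells, with no call against basal cells (edgeR adjusted p = 0.687), and 23.04, 71.6 and 93.5 in the other follicle cells, above basal cells by a log2 fold of 1.47 ± 0.38 (edgeR adjusted p = 0.0112). Tap2, at 26.5 ± 12.7 CPM in the marked cells and 16.3 ± 7.67 in the other follicle cells (SD, n = 3), passed in no comparison of the split. Cd200 was high in both subsets and lower in the marked one, with 48.8, 82.7 and 88.3 CPM in the marked cells and 166, 266 and 368 in the other follicle cells (log2 fold -2.01 ± 0.37, edgeR adjusted p = 0.00151). Marked cells still exceeded basal cells in Cd200 by a log2 fold of 4.40 ± 0.53 (edgeR adjusted p = 6.36e-07). H2-M2 and H2-M5 were at 0 in both subsets.

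Between the 2 subsets 4 of 10 members were lower in the marked cells, against 2.08% of all genes, 0.724% higher and 1.35% lower. The 4 calls of marked against basal cells held in each of 7 alternative settings, leaving out any 1 library included. Of the subset differences only that of H2-K1 held in all 7. When both subsets were limited to cells within the basal keratin limits, H2-K1 was the one member left past the threshold between them. That fit used fewer cells, with 6 in the smallest profile of each subset. Those limits left 40 marked cells, in which H2-K1 had 29.4, 97.8 and 69.7 CPM. Of the calls of the other follicle cells against basal cells, only that of Cd200 held within them. B2m there had a log2 fold of 0.65 (edgeR adjusted p = 0.274), Tap1 0.73 (0.593) and Tapbp 0.08 (0.966). Tapbp also lost its call without replicate 1 (0.0625) or 3 (0.313), Tap1 without replicate 3 (0.442) and B2m without the block (0.0734).

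The 2 subsets also differed in other transcripts. Krt79, a marker of the upper follicle and sebaceous duct in mouse, was at 0 in the marked cells and at 1212, 747 and 4103 CPM in the others. Krt17, a keratin of the outer root sheath, was at 64.2 to 122 in the marked cells and 3519 to 8237 in the others, whereas Lhx2, a bulge factor, was at 226 to 269 in the marked cells and 59.9 to 143 in the others. The 6 sebocyte markers summed to 72.2 to 110 CPM in the marked cells and 859 to 4227 in the others. The 6 spinous markers summed to 806 to 8725 in the marked cells and 4682 to 13730 in the others. Granular markers were at 61.0 to 5634 in the marked cells, mostly Lor in replicate 2, and at 41.5 to 767 in the others. The 6 fibroblast markers summed to 45.1 to 366 in the marked cells and 0 to 6.24 in the others. The 5 melanocyte markers, 4 of them detected, summed to 7.52 to 273 in the marked cells and 0 to 20.5 in the others. Median totals were 5655, 3303 and 4141 UMIs per marked cell, against 7564, 4326.5 and 5808.5 in the others. The part of these transcripts and of depth in the members' differences was not tested.

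The members were also followed by the number of follicle markers. Among cells within the basal keratin limits, those with 0, 1, 2 and 3 or more of the 5 follicle markers numbered 2235, 76, 45 and 30. H2-K1 averaged 253 ± 103, 231 ± 76.0, 181 ± 72.7 and 111 ± 40.2 CPM over these steps (SD, n = 3 libraries), with pooled levels of 255, 221, 214 and 126. H2-T23 averaged 47.7 ± 5.91, 79.1 ± 39.9, 111.3 ± 53.0 and 175 ± 92.4 CPM over the same steps. The means of H2-K1 ran downward and those of H2-T23 upward, but neighbouring steps lay within the spread between libraries. H2-D1 was not ordered, at 252, 197, 203 and 183, nor was B2m, at 109, 154, 147 and 129, and Cd200 was highest at 2 markers, with means of 0.723, 81.9, 159 and 43.1 CPM. Detecting a marker depends on a cell's depth, and the last step rests on 19 H2-K1 counts.

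The 17 follicle cells with a Krt79 UMI, none of them marked by Cd34 or Lgr5, had 581 ± 242 CPM of H2-K1, 341 ± 84.9 of B2m and 138 ± 33.3 of Tapbp, against 150.2 ± 80.1, 150.6 ± 36.4 and 44.9 ± 17.6 in the 105 cells without one (SD, n = 3 libraries). H2-T23 was lower in them, with 79.1 ± 29.1 CPM in cells with Krt79 and 121 ± 8.18 in cells without, and Tap2 had 1 count in cells with Krt79 and 16 in cells without. Follicle cells with a Cd200 UMI (44 cells) had 342 ± 79.5 CPM of H2-K1, and those without (78 cells) had 149.8 ± 36.5. H2-T23 was again the other way, at 87.8 ± 15.5 CPM with and 128 ± 7.59 without, and the cells with Cd200 were deeper, with 372230 UMIs in all against 442419 in the larger set without.

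**Figure D3:**
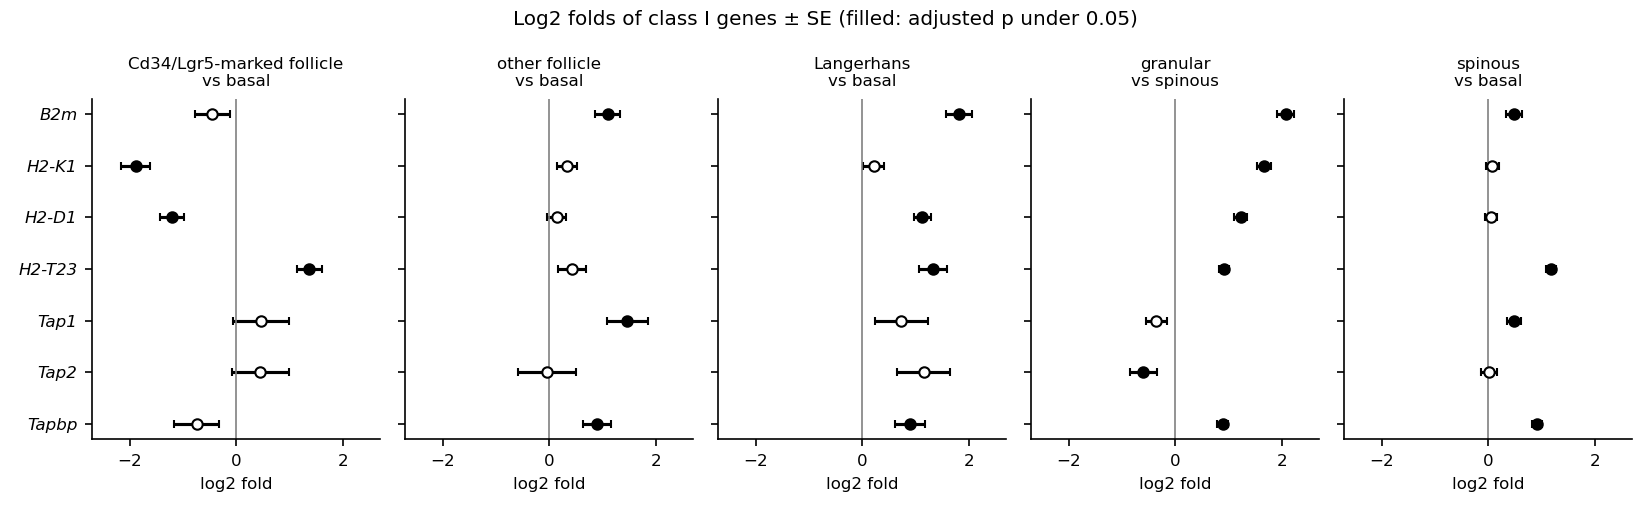
Log2 folds (horizontal axes, ± SE) of 7 members in 5 comparisons, with filled points where the edgeR adjusted p was under 0.05. In Cd34 or Lgr5 marked follicle cells against basal cells H2-K1 and H2-D1 lie left of 0 at -1.88 and -1.20 with H2-T23 to the right at 1.38, whereas in granular against spinous cells 5 members lie to the right with filled points.

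In the interfollicular epidermis, at the step of spinous against basal cells, H2-T23, Tapbp, Tap1 and B2m were higher. These are 4 of the 8 members that entered the fit without the help of Langerhans cells, where 65.3% of all genes passed, 33.3% higher and 32% lower. H2-M2 had 12 spinous and 29 basal counts. It entered the fit only through Langerhans cells, so these counts are given as a description. H2-T23 had 88.4, 82.1 and 81.8 CPM in spinous cells, against 52.0, 51.7 and 41.7 in basal cells, a log2 fold of 1.18 ± 0.10 (edgeR adjusted p = 2.69e-10). Tapbp had 58.8, 60.1 and 68.9 CPM in spinous cells and 41.6, 41.9 and 45.5 in basal cells (log2 fold 0.92 ± 0.10, edgeR adjusted p = 1.24e-08). The groups of both genes were apart in all libraries. B2m was higher by 0.48 ± 0.15 (edgeR adjusted p = 0.00835) and Tap1 by 0.49 ± 0.13 (edgeR adjusted p = 0.0024) on the log2 scale, with overlapping groups. H2-K1, at 169.9, 281 and 158 CPM in spinous cells, and H2-D1, at 179, 251 and 168, did not pass. The share of members called lies below the background, and the scaling matters. To total UMIs, which lowered the median log2 fold of all genes by 0.37, H2-T23 and Tapbp stayed higher at 0.80 and 0.54. Under that scaling 4 members were called lower, H2-M2 among them. All genes split into 3984 higher and 3823 lower calls under the main scaling and 2520 and 5907 under total UMIs.

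In granular against spinous cells the light chain, both classical heavy chains, H2-T23 and Tapbp were higher and Tap2 was lower. These are 6 of 10 members, 5 higher and 1 lower, where 65.3% of all genes passed, 27.3% higher and 38% lower. The 10 include H2-M2 and H2-M5, which entered the fit only through Langerhans cells and were not called here. B2m had 268, 380.3 and 265 CPM in granular cells, against 94.6, 168 and 89.1 in spinous cells. H2-K1 had 361, 482 and 345 in granular cells and 169.9, 281 and 158 in spinous cells. H2-D1 had 284, 358 and 242 in granular cells and 179, 251 and 168 in spinous cells. In each library the granular value was the higher one for all 3 genes. Their log2 folds were 2.07 ± 0.16 for B2m (edgeR adjusted p = 4.17e-11), 1.67 ± 0.13 for H2-K1 (edgeR adjusted p = 1.03e-10) and 1.23 ± 0.12 for H2-D1 (edgeR adjusted p = 3.19e-09). The folds exceed the ratios of the CPM levels because they include the TMM factors, which were 0.516 to 0.614 in granular and 0.896 to 0.908 in spinous profiles.

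The 3 calls held in all 13 alternatives, with log2 folds of at least 1.41 for B2m, 1.00 for H2-K1 and 0.56 for H2-D1. H2-T23 was higher by 0.92 ± 0.10 (edgeR adjusted p = 3.43e-08) and Tapbp by 0.90 ± 0.10 (edgeR adjusted p = 5.9e-08), but to total UMIs only 0.24 and 0.21, and the call of Tapbp was then lost (edgeR adjusted p = 0.0506). Tap2 had 2.97, 7.83 and 3.45 CPM in granular cells and 11.9, 14.7 and 9.23 in spinous cells (log2 fold -0.60 ± 0.26, edgeR adjusted p = 0.0463), and its call held in 7 of 13 alternatives. Tap1 had 10.1, 10.3 and 8.87 CPM in granular cells and 17.2, 25.2 and 17.2 in spinous cells, a log2 fold of -0.36 that did not pass (edgeR adjusted p = 0.116), whereas to total UMIs it was called lower at -1.05 (edgeR adjusted p = 5.11e-05). The main scaling gave 3265 higher and 4544 lower calls over all genes, and total UMIs gave 2030 and 7079, with the median log2 fold lower by 0.67.

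By CPM, which takes no TMM factors, Langerhans cells had the highest levels of B2m, H2-D1 and H2-T23. This order depends on the scaling, since for B2m the TMM-scaled test against granular cells ran the other way. H2-M2 and H2-M5 were found almost nowhere else. Against basal cells B2m, H2-D1, H2-T23 and Tapbp were higher, 4 of the 8 members that entered the fit without Langerhans cells, where 22.1% of all genes passed, 10.6% higher and 11.5% lower. By edgeR 0 were lower, also 0 unadjusted and with DESeq2. H2-M2 and H2-M5 passed the low-count filter only through these cells, so their levels are given as a description. Only replicates 2 and 3 gave Langerhans cells. H2-M2 had 1433 and 1182 CPM in them, from 266 and 150 counts, and H2-M5 had 1826 and 1142. The ratio of pooled counts to basal cells was 960 for H2-M2, with a 95% counting interval of 659 to 1452, and 10801 for H2-M5, with 3674 to 52558 on 3 basal counts. Against the 0 UMIs of follicle cells, set to 3 counts over the group, H2-M2 was at least 361-fold higher and H2-M5 at least 420-fold higher.

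B2m had 415 and 591 CPM in Langerhans cells, against 160.1 and 96.5 in basal cells of the same libraries (log2 fold 1.82 ± 0.24, edgeR adjusted p = 3.25e-06). H2-D1 had 786 and 559 in Langerhans cells and 328 and 216 in basal cells (1.13 ± 0.16, edgeR adjusted p = 1.07e-05). H2-K1 had 399 and 339 in Langerhans cells and 369 and 208 in basal cells, with no call (0.22, edgeR adjusted p = 0.497). H2-T23, at 145 and 134 CPM, was above basal cells by 1.34 ± 0.26 (edgeR adjusted p = 0.000427) and Tapbp, at 86.2 and 110.3, by 0.90 ± 0.29 (edgeR adjusted p = 0.0266). The calls of B2m, H2-D1 and H2-T23 held in all 15 alternatives and that of Tapbp in 11. Leaving out replicate 2 or 3 leaves 1 Langerhans profile, which is then assumed to vary like the other groups. The limit of 2% keratins in Langerhans cells and the minimum of 3 cells per profile changed no profile, so they could not move a call. Tap1 (12 counts) and Tap2 (13 counts) did not pass, and Cd200 had 2 counts. The 21 cells with T-cell markers had 29 H2-D1, 21 H2-K1, 18 H2-T23 and 12 B2m counts in 67340 UMIs and 0 of Cd200, H2-M2 and H2-M5. Not all of them lay outside the groups, as basal cells of replicate 2 numbered 921 with them and 920 without.

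Ordered by mean CPM, B2m was highest in Langerhans cells (503 ± 125, n = 2), then granular (305 ± 65.5), follicle (192 ± 27.7), spinous (117 ± 44.2) and basal cells (109.9 ± 45.0, SD, n = 3). Follicle and spinous cells were the one neighbouring pair that did not pass. Between Langerhans and granular cells the test ran against the order of levels, since with TMM scaling the log2 fold was -0.73 ± 0.23 (edgeR adjusted p = 0.0123, with 43% of genes called, 18.4% higher and 24.6% lower). H2-K1 was highest in granular cells (396 ± 75.0), then Langerhans (369 ± 42.3), basal (252 ± 102), follicle (239 ± 48.9) and spinous cells (203 ± 67.7). Only the step between Langerhans and granular cells passed, with a log2 fold of -1.53 ± 0.20 (edgeR adjusted p = 8.33e-07).

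H2-D1 followed Langerhans (673 ± 161), granular (295 ± 58.9), basal (251 ± 67.0), follicle (237 ± 19.7) and spinous cells (199.5 ± 44.6), and of neighbours only granular and basal cells passed (log2 fold 1.28 ± 0.12, edgeR adjusted p = 9.18e-10, with 77.4% of genes called, 33.9% higher and 43.5% lower). H2-T23 followed Langerhans (139.7 ± 8.13), follicle (109.6 ± 8.16), granular (99.3 ± 5.12), spinous (84.1 ± 3.74) and basal cells (48.5 ± 5.88). Langerhans against follicle cells did not pass (0.36 ± 0.28, edgeR adjusted p = 0.446, with 14.4% of genes called, 7.08% higher and 7.32% lower), while follicle cells were below granular cells on the TMM scale (-1.12 ± 0.17, edgeR adjusted p = 3.8e-06, with 59.8% of genes called, 31.1% higher and 28.7% lower). Tap1 was highest in follicle cells (48.2 ± 24.5), then Langerhans (37.3 ± 8.19), spinous (19.8 ± 4.63), basal (18.3 ± 0.753) and granular cells (9.76 ± 0.778), and of these neighbours only spinous and basal cells passed. Tap2 followed Langerhans (41.2 ± 2.62), follicle (20.4 ± 9.83), basal (15.3 ± 3.05), spinous (11.9 ± 2.75) and granular cells (4.75 ± 2.68), and only granular and spinous cells passed. Tapbp followed Langerhans (98.2 ± 17.0), granular (71.9 ± 9.62), follicle (67.7 ± 6.87), spinous (62.6 ± 5.49) and basal cells (43.0 ± 2.13), and only follicle and spinous cells did not pass (edgeR adjusted p = 0.0624). Here too the test of Langerhans against granular cells ran against the order of levels (log2 fold -0.92 ± 0.25, edgeR adjusted p = 0.00448). Cd200 followed follicle (179.9 ± 58.4), Langerhans (5.39 ± 7.62), basal (2.78 ± 0.888), spinous (1.91 ± 1.22) and granular cells (0.794 ± 1.17), with follicle cells apart from the other groups.

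**Figure D4:**
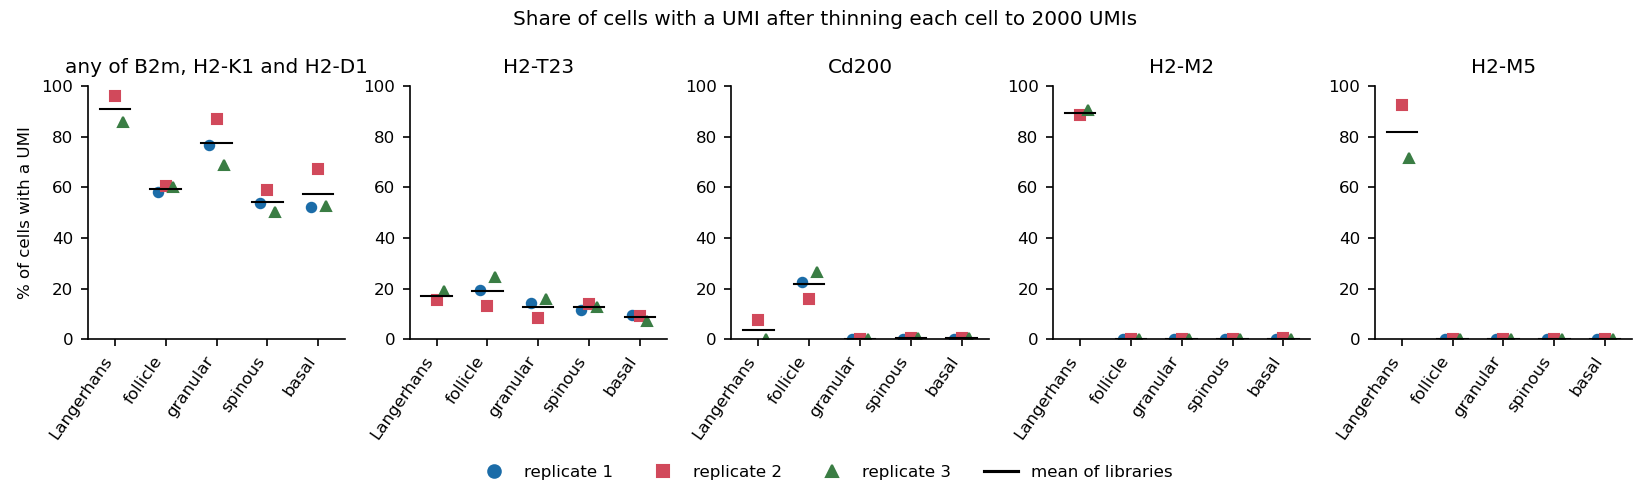
Share of cells with a UMI (vertical axes, 0 to 100%) after each cell was thinned to 2000 UMIs, by cell group, 1 point per library with a line at the mean. A UMI of B2m, H2-K1 or H2-D1 was found in 59.5% of follicle cells and 57.4% of basal cells, and Cd200 in 21.7% of follicle cells.

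Counted by cell, depth has to be equal, so each cell was thinned to 2000 UMIs, which left out 8 of 122 follicle and 142 of 2311 basal cells. At that depth 59.5 ± 1.30% of follicle cells and 57.4 ± 8.55% of basal cells had a UMI of B2m, H2-K1 or H2-D1 (SD, n = 3 libraries). Without thinning the shares were 78.8 ± 7.46% of follicle cells and 89.0 ± 2.93% of basal cells. Class I transcripts were thus found in most follicle cells at equal depth. H2-T23 was detected in 19.0 ± 5.65% of thinned follicle cells, against 8.61 ± 1.33% of basal cells. Cd200 was detected in 21.7 ± 5.49% of thinned follicle cells, against 0.424 ± 0.239% of basal cells and 0 of 410 granular cells, which allows up to 0.732%. Unthinned, those Cd200 shares were 36.2 ± 1.83% in follicle and 1.12 ± 0.0671% in basal cells. H2-M2 was detected in 42 of 47 thinned Langerhans cells and in 0.233 ± 0.117% of basal cells. The source of its UMIs in basal cells was not tested. With 3 libraries a paired exact permutation test cannot go below a two-sided p of 0.25, so these shares were not tested.

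Around the members, the lists of the pathway were counted in follicle against basal cells beside the 13.9% of all genes called. Of 7 tested heavy chain genes beyond the members only Mr1, which presents vitamin metabolites to MAIT cells, was higher (log2 fold 1.89 ± 0.59, edgeR adjusted p = 0.0321, 10 counts in follicle cells), and 0 were lower. Of 9 other genes of the loading complex and its folding enzymes 1 was higher, the glucosyltransferase Uggt1, and 2 were lower, calreticulin (Calr, -0.74 ± 0.19) and the disulfide isomerase Pdia3 (-0.64 ± 0.14). Psme2, a proteasome activator subunit, was the 1 of 6 immunoproteasome and activator genes that was lower (-0.56 ± 0.14), and 2 of 8 constitutive proteasome genes, Psmb4 and Psmb5, were lower by 0.53 and 0.49 on the log2 scale. Of 15 regulators of class I transcription 0 passed, with 1 higher and 3 lower at an unadjusted p under 0.05 and 1 higher with DESeq2. All these calls are by edgeR's adjusted p. The median log2 fold was 0.42 over the heavy chains, -0.33 over the loading genes, -0.29 over the immunoproteasome, -0.27 over the constitutive proteasome and -0.02 over the regulators, beside -0.06 over all genes.

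**Figure D5:**
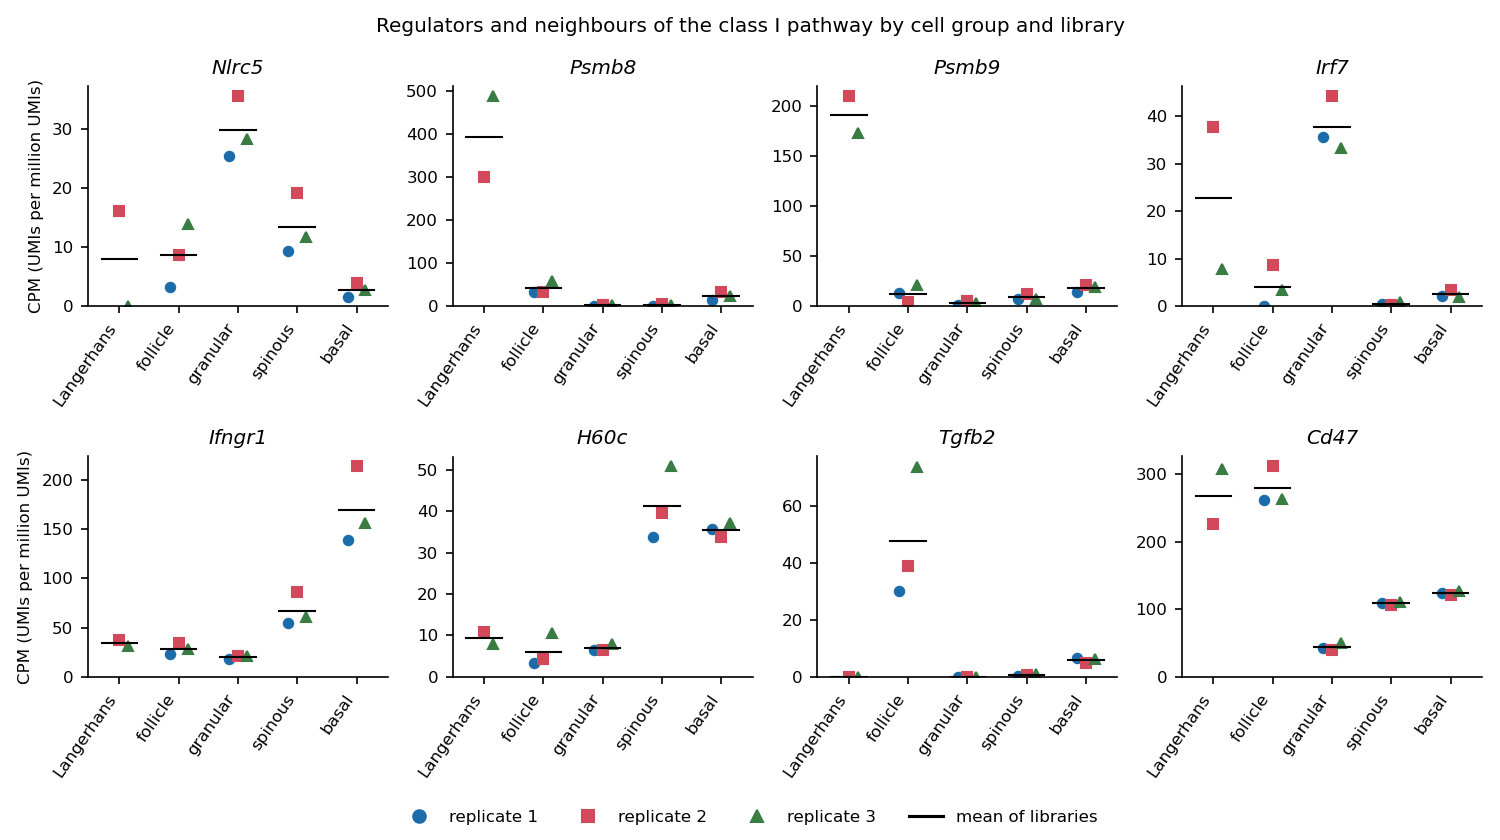
Levels in CPM (vertical axes, from 0) of 8 genes around the class I pathway by cell group, 1 point per library with a line at the mean. Nlrc5 lies at 25.5 to 35.6 in granular cells, Psmb8 at 302 and 488 in Langerhans cells, Ifngr1 at 23.4 to 34.7 in follicle cells against 139 to 214 in basal cells, and Tgfb2 is highest in follicle cells.

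The largest difference among interferon receptor genes was in Ifngr1, a chain of the receptor for interferon gamma, which induces class I. It had 23.4, 34.7 and 28.1 CPM in follicle cells, against 139, 214 and 156 in basal cells, and was the 1 of 10 receptor and Jak genes called (log2 fold -2.76 ± 0.23, edgeR adjusted p = 5.74e-09). The groups were far apart, and the call held in all 18 alternatives. It was low in both follicle subsets, at 0, 30.1 and 40.1 CPM in the marked cells and 32.3, 40.9 and 18.7 in the others. Of 15 tested interferon-stimulated genes 1 was higher, Xaf1 on 6 follicle counts, and 1 lower, Ifitm3 (-1.59 ± 0.26, edgeR adjusted p = 0.000117).

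Among genes named as guardians of follicle immune privilege, 2 of 6 tested were higher and 1 lower. Tgfb2 had 30.1, 39.0 and 73.7 CPM in follicle cells and 6.73, 5.04 and 6.12 in basal cells (log2 fold 2.79 ± 0.37, edgeR adjusted p = 1.6e-05). Tgfb3 (15 counts in follicle cells) was higher by 3.52 ± 0.63 (edgeR adjusted p = 0.000448), while Tgfb1, of the same family of inhibitory cytokines, was lower (log2 fold -1.40 ± 0.43, edgeR adjusted p = 0.0302). Of 6 tested ligands of natural killer cell receptors 2 were lower. H60c, a ligand of the activating receptor NKG2D, had 3.35, 4.33 and 10.5 CPM in follicle cells and 35.6, 33.7 and 37.2 in basal cells (-2.73 ± 0.46, edgeR adjusted p = 0.000165). Clec2g was at 0 in follicle cells and at 6.73 to 9.94 in basal cells. Cd47, the signal that stops engulfment by macrophages, had 261, 312 and 263 CPM in follicle cells and 124, 121 and 126 in basal cells (0.95 ± 0.14, edgeR adjusted p = 2.03e-05). Cd47 and Lgals9 were the 2 of 9 checkpoint and complement genes that were higher. The 7 tested class II genes gave 0 calls by edgeR, 1 at an unadjusted p under 0.05 and 0 with DESeq2.

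In the layers, the class I transactivator gene Nlrc5 was higher at both steps. H2-K1 and H2-D1 rose at the granular step but not in spinous over basal cells (log2 folds 0.08 and 0.05, edgeR adjusted p = 0.605 and 0.716). A link between Nlrc5 and the heavy chains was not tested. It had 25.5, 35.6 and 28.3 CPM in granular cells, 9.33, 19.3 and 11.8 in spinous cells and 1.64, 4.03 and 2.71 in basal cells. The log2 folds were 1.83 ± 0.15 for granular over spinous cells (edgeR adjusted p = 3.06e-10) and 2.61 ± 0.20 for spinous over basal cells (edgeR adjusted p = 3.47e-11). In follicle cells Nlrc5 had 7 counts in all, 0 of them in the marked subset. With 339504 UMIs in that subset, an absence at the basal levels was not detectable at this depth. Of the 15 regulators 3 were higher and 4 lower in granular than in spinous cells, among them Stat2 (0.79) and Nfkb1 (-2.83). In spinous against basal cells 4 were higher and 4 lower, among them Irf9 (1.37) and Irf1 (-2.37). Both shares of regulators called lie below the 65.3% of all genes called at each step.

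Of the 7 other heavy chain genes 4 were higher and 2 lower in granular than in spinous cells, with H2-Q6 (2.82), H2-Q4 (2.05) and H2-Q7 (1.80) on top and Mr1 (-1.99) at the bottom. List counts at this step stand beside 65.3% of all genes called, 27.3% higher and 38% lower. Interferon-stimulated genes gave 5 higher and 2 lower of 15: Irf7, a factor of the interferon response, had 35.6, 44.1 and 33.3 CPM in granular cells and 0.504, 0.299 and 0.845 in spinous cells (log2 fold 6.69 ± 0.26, edgeR adjusted p = 1.1e-16). Immunoproteasome and activator genes gave 0 higher and 4 lower of 6. In spinous against basal cells they gave 1 higher and 3 lower, with Psmb8 at -2.24 ± 0.19 (edgeR adjusted p = 4.46e-10). All genes gave 65.3% calls there, 33.3% higher and 32% lower. In granular against spinous cells Psmb8 had a log2 fold of 0.098 (edgeR adjusted p = 0.854).

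In Langerhans against basal cells Psmb8 had 302 and 488 CPM, against 33.1 and 23.2 in the same libraries (log2 fold 3.52 ± 0.26, edgeR adjusted p = 3.11e-10), and Psmb9 was higher by 2.99 ± 0.29 (edgeR adjusted p = 2.67e-08). Both encode catalytic subunits of the immunoproteasome, and 1 of the 6 genes of the list, Psme2, was lower. Of the 7 other heavy chain genes H2-M3 (3.64) and Hfe (2.76) were higher. Over all genes 22.1% were called in this comparison, 10.6% higher and 11.5% lower. Of 15 interferon-stimulated genes 6 were higher and 2 lower, led by Igtp (4.43), and 0 of 9 loading genes passed by edgeR, with 1 lower at an unadjusted p under 0.05 and 1 higher with DESeq2.

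The genes whose pattern was most like that of a member were found by Pearson's r of library-centred log2 levels over the 14 profiles of a library and group, which share libraries and depth. Replicate 1 has no Langerhans profile and was centred without that group, which shifts its values for genes high or low in Langerhans cells. For B2m they were Ctsh (r = 0.964), Snx29, Epcam, Sash1 and Ptpn12 (0.957). For H2-K1 they were Lce1g (r = 0.984), Ube2d3, Lce1c, Acbd5 and Pcf11 (0.977), of which the Lce1 genes encode proteins of the cornified envelope. For Tapbp they were Atp6v0d1 (r = 0.986), Usp6nl, Mast3, Xbp1 and Rab11fip1 (0.978). For Cd200 they were Inhbb (r = 0.960), Enho, Arhgap28, Enox1 and Peg3 (0.955), none of which was detected in granular or Langerhans cells.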

How the data were processed

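Single-cell RNA libraries of 3 replicates were made with a droplet kit that reads the 5′ ends of transcripts. Cell Ranger 3.1.0 and build mm10 were used, per the submitters' processing notes. The sources used here name neither the annotation behind the counts nor the use of strand. What the authors deposited are whole-number UMI counts, in 1 matrix per library limited to called cells. Gene positions come from GENCODE M21. Between libraries 3, 4 and 9 barcodes were shared by pairs.

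A cell was kept if it had 500 or more genes and a mitochondrial share of 10% or less. Scrublet in scanpy 1.11.5 marked 30 doublets (0.562%), kept in the values and removed in an alternative. Counts were summed per library and group of at least 10 cells, which left 14 profiles and none of Langerhans cells in replicate 1. They were tested in 1 fit with edgeR 4.0.16 (R 4.3.3, limma 3.58.1): TMM scaling, its low-count filter, a quasi-likelihood test with the library as a block, and Benjamini-Hochberg adjustment over all genes, called at 0.05. The Cd34 or Lgr5 split was a second such fit. The SE is the size of the log2 fold divided by the square root of F. Levels in CPM were computed here from a profile's total and are not TMM-scaled. The block is a pairing from the design, as profiles of 1 library share their source. Deviations of a library in the 2 groups compared correlated across genes with r of -0.0553 to 0.260. The steps were tested on simulated data. Intervals are exact at 95%, limits from a count of 0 are 3 counts, and both cover counting error only.

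The 10 members, the gene lists and the split were chosen with earlier results of these data known. From each list up to 3 genes with the largest log2 fold in each direction past the threshold were named, except 1 that is not reported here. Further genes named for a count, a marker or an overlap were chosen after their values were seen. Alternatives were DESeq2 1.42.0, total UMI scaling, no low-count filter, no block, other cell filters, other group limits and leaving out each library. A minimum of 3 cells per profile and a keratin limit for Langerhans cells changed no profile, and leaving out T-marker cells changed almost none. The numbers of alternatives in which a call held include these settings. Thinning drew 2000 UMIs per cell (seed 1). Protein sequences and the Tap2 promoter were not used here.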

Additional observations from a re-analysis of the deposited data

Results flagged for a closer look

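The members whose level differed between follicle cells with a UMI of Cd34 or Lgr5 and the other follicle cells were H2-K1, with a log2 fold of -2.21, Cd200 with -2.01, B2m with -1.55 and H2-D1 with -1.34. Each passed between the subsets (edgeR adjusted p = 3.12e-05, 0.00151, 0.0134 and 0.00311 in that order) and was lower in the marked cells of all 3 libraries. The split was chosen after the values were seen and uses markers of the follicle rule, so these p-values are no independent support. Within the basal keratin limits, with profiles of as few as 6 cells, the fold of H2-K1 alone passed. The subsets also differed in sebocyte and fibroblast markers and in depth, while the ranges of their melanocyte and granular markers overlapped. The part of these markers and of depth was not tested.

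Cd200 was found in cells that met no group's limits. Without T-marker cells these numbered 14, 66 and 43 in replicates 1, 2 and 3 and had 19.1, 131 and 213 CPM of Cd200, or 147 when pooled, against 2.00 to 3.75 in basal cells. What these cells are was not tested.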

How the results depend on the processing

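Counts of genes called moved by over 1.5 times as follows. Follicle against basal cells gave 1663 genes, but 1006 in cells with 1000 or more genes and at most 5% mitochondrial UMIs, 743 with 3 or more follicle markers, 1023 in cells of 5000 or more UMIs, 921 within the basal keratin limits and 1065 to 1198 when a library was left out. The stricter cell filter and the limit of 3 markers also left out the follicle profile of replicate 1, with 6 and 7 cells. The 4 members called, all higher, became 2 within the keratin limits and 2 to 3 without a library, 1 higher and 2 lower with 3 or more markers, and 2 higher and 2 lower both without Krt79 cells and in Cd34 or Lgr5 marked cells, the lower ones being H2-K1 and H2-D1. Follicle against spinous cells gave 4299 genes, but 1825 under the stricter cell filter and 2333 with 3 or more markers. Its 1 member became 2 under the stricter filter, 2 with DESeq2, 2 without doublets, 3 with total UMI scaling, 4 with 3 or more markers (1 higher and 3 lower), 4 within the keratin limits, 4 without Krt79 cells, 5 in Cd34 or Lgr5 marked cells and 1 to 2 without a library. Marked follicle against basal cells gave 1304 genes, but 741 within the keratin limits and 775 to 987 without a library. Marked against other follicle cells gave 238 genes, but 114 within the keratin limits and 95 to 286 without a library, and its 4 members became 1 within those limits, 2 with no replicate block and 3 to 5 without a library. Other follicle against basal cells gave 1044 genes and 4 members, but 550 and 1 within the keratin limits, and 2 to 4 members without a library. Langerhans against basal cells gave 2645 genes, but 1468 to 2501 without a library (1468 without replicate 2, 1604 without replicate 3). Spinous against basal cells gave 5 members, but 3 with DESeq2 and 3 to 5 without a library. The 5 include H2-M2, which entered the fit only through Langerhans cells. Without the block, follicle against basal cells kept 3 calls among the members and lost that of B2m. All other counts of calls stayed within 1.5 times.

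Signs turned as follows, as log2 folds. With total UMI scaling, follicle against spinous cells gave 0.28 for H2-D1, 0.26 for H2-K1, 0.38 for H2-T23, 0.11 for Tapbp, 0.20 for Mif, 0.18 for Psma7 and 0.10 for Psmb5. Spinous against basal cells gave -0.33 for H2-D1, -0.30 for H2-K1, -0.36 for Tap2, -0.071 for Uggt1 and -0.00045 for Psmb4. Granular against spinous cells gave -0.32 for Calr, -0.0046 for Hspa5 and -0.0056 for Psmb7, and other follicle against basal cells gave 0.18 for Tap2. Total UMI scaling also split the calls differently: 1188 higher and 374 lower in follicle against basal cells (935 and 728 with TMM), 3427 and 1042 in follicle against spinous cells (1883 and 2416), 1466 and 957 in Langerhans against basal cells (1271 and 1374), 778 and 290 in marked follicle against basal cells (578 and 726), 716 and 219 in other follicle against basal cells (589 and 455) and 101 and 114 in marked against other follicle cells (83 and 155). It moved the median log2 fold of all genes by 0.19 in follicle, 0.22 in Langerhans, 0.30 in marked and 0.20 in other follicle cells, each against basal cells. With DESeq2, spinous against basal cells gave -0.062 for H2-D1, -0.033 for H2-K1 and -0.10 for Tap2, follicle against spinous cells 0.066 for H2-T23, and other follicle against basal cells 0.16 for Tap2.

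Over follicle cells with 3 or more markers, B2m was -0.25 against basal and -0.72 against spinous cells, Tapbp -0.49 against basal cells and Irf2 -0.094 against spinous cells. Over Cd34 or Lgr5 marked cells, B2m was -0.44 against basal and -0.91 against spinous cells, Tapbp -0.73 against basal and H2-T23 0.22 against spinous cells. Without Krt79 cells, B2m was -0.23 against spinous and Tapbp -0.17 against basal cells. Within the keratin limits B2m was -0.20 against spinous and Tapbp -0.46 against basal cells, and in other follicle against basal cells H2-D1 was -0.18 and H2-K1 -0.13. Under the stricter cell filter H2-K1 was -0.017 in Langerhans against basal cells, 0.13 in follicle against basal and 0.16 against spinous cells, H2-D1 0.047 in follicle against spinous cells, and spinous against basal cells gave -0.054 for H2-D1, -0.035 for H2-K1 and -0.027 for Tap2. In cells of 5000 or more UMIs, spinous against basal cells gave 0.13 for Cd200 and -0.0076 for Tap2, and without cycling cells -0.034 for H2-K1 and -0.13 for Tap2.

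Leaving out 1 library turned signs in these ranges. Follicle against spinous cells ran from -0.060 to 0.42 for B2m and from -0.39 to 0.63 for Tap2, follicle against basal cells from -0.38 to 0.62 for Tap2, and marked follicle against basal cells from -0.61 to 0.76 for Tap1 and from -0.27 to 0.99 for Tap2. Other follicle against basal cells ran from -0.15 to 0.31 for H2-D1 and from -0.61 to 0.23 for Tap2. Granular against spinous cells ran from -2.62 to 0.27 for Cd200, and spinous against basal cells from -0.51 to 0.11 for Cd200, -0.010 to 0.10 for H2-D1, -0.033 to 0.15 for H2-K1 and -0.014 to 0.033 for Tap2. None of these ranges belongs to a member called in that comparison. The causes of these changes were not tested beyond what each setting leaves out. Over the log2 folds of single genes, 2842 alternative values kept direction and side of the threshold, 352 lost the call, 32 gained it and 61 turned sign. The values that kept both include settings that changed no profile. Small profiles limit the low genes: follicle profiles held 230696 to 298933 UMIs and Langerhans profiles 185682 and 126954.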
